A study of Drosophila melanogaster with 8 samples.

Results

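The long terminal repeat (LTR) retrotransposon insertions are 1167 of the 5416 transposon insertions, and of the 22887 features, in a table of read counts from fly testes. They were chosen by name alone: an insertion counted as a member when the family written before the braces of its symbol was one of 50 listed LTR families. Of these families 48 were found in the table, whereas Max-element and qbert matched no symbol. Each insertion is 1 place in the reference genome where a copy of a family lies, and the digits after the braces identify it, so opus{}2507 is the insertion 2507 of the family opus.

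LTR retrotransposons move through an RNA that is transcribed from one terminal repeat to the other and copied back into DNA by reverse transcriptase. In Drosophila they fall into Ty3/gypsy, BEL/Pao and Ty1/copia types, and some gypsy types, the errantiviruses, also carry an envelope gene. In fly gonads small RNAs bound by Piwi proteins (piRNAs) silence them, both by cutting their transcripts and by closing the chromatin of their copies, and small interfering RNAs made by Dcr-2 act in somatic cells as well.

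The libraries were made from total RNA of dissected testes of 5-day-old flies, 2 libraries from separate dissections in each of 4 groups. The groups were w1118, a control strain with white eyes, and mutants of Tailor, of Dis3L2 and of both genes (Tailor/Dis3L2). Tailor adds uridines to the 3′ ends of RNAs and Dis3L2 is an exonuclease that degrades RNAs from a uridylated 3′ end, so the groups allow the loss of each enzyme and of both to be compared. No source used here gives the alleles or the strains behind each mutant, so a change in RNA and a difference between strains in which copies of an element they carry cannot be told apart.

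The libraries held 9781275 to 30059737 counts, and the second double mutant library was the shallowest. Tailor itself fell to 19.0 and 20.5 CPM (counts scaled to library size, 1e6 per library) in the Tailor mutant from 82.6 and 87.0 CPM in w1118, and Dis3L2, listed as CG16940, fell to 9.99 and 10.6 CPM in the Dis3L2 mutant from 115 and 117 CPM. In the double mutant Dis3L2 stood at 30.7 and 30.8 CPM. Testis markers were present in every library, with a summed level of 975.6 to 1876 CPM for 10 germline and spermatocyte genes and 4941 to 6788 CPM for 7 spermatid genes. Markers of neighbouring tissues varied between libraries: 12 accessory gland genes summed to 12660 and 11970 CPM in w1118, 40150 and 10110 in Tailor testes, 3637 and 4785 in Dis3L2 testes and 14220 and 10810 in double mutant testes. For 8 midgut genes the sums were 80.3 and 592.1 CPM in w1118, 101 and 149 in Tailor testes, and between 21.4 and 41.8 in the other 4 libraries. The 6 blood cell genes summed to 290 and 288 CPM in Dis3L2 testes, against 125 to 227 in the other libraries, and 2 of 5 tested were called higher there than in w1118. For 8 cyst and hub genes the Dis3L2 sums, 195 and 192 CPM, also lay above the others (123 to 159), with 1 of 8 called. For 7 fat body genes they were 95.9 and 94.0 CPM, with 1 of 7 called lower. These sums lay near the 111 and 104 CPM of the double mutant and below the 187 to 248 of w1118 and Tailor testes. The median log2 change of the 7 genes against w1118 was nevertheless 0.56 with Dis3L2 mutated. With both genes mutated it was 0.38, and 1 was called higher and 1 lower. Most of the 7 thus had a change above 0, unlike their sum. Sums of 8 muscle genes were 739 and 871 CPM in Tailor testes, above all others (up to 691), with 1 of 8 called higher. None of these marker genes was at 0 in all libraries, and the part of such tissue, or of ribosomal RNA (1.43 to 24.6% of counts), in the differences below was not tested. In whole testes, fewer cells of a type and less RNA per cell cannot be told apart.

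Most LTR insertions had few reads. No count was seen in any library for 304 of the 1167, and 625 had fewer than 10 counts over the 8 libraries together, with a median of 7. The annotation placed 1164 of them: 636 between genes, 422 in introns and 106 across exons. Intronic copies lay more often antisense to their gene (256) than sense (166), while exonic copies were split 53 to 53. Lengths ran from 25 to 32921 bp with a median of 1481.5 bp, so that 543 were fragments under 1 kb and 437 were at least 5 kb, the size of a whole element. A filter on low counts, applied to all features, left 299 of the 1167 for testing. These 299 held 97.3% of the LTR counts, and the 868 others have no test.

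Levels of the LTR group as a whole overlapped between w1118 and the double mutant when copies over exons were counted. All LTR insertions together made up 0.13 to 0.201% of the counts and 55.1% of the counts on transposon insertions. The summed level was 1503 and 1485 CPM in w1118, 1641 and 2000 in Tailor testes, 2091 and 1729 in Dis3L2 testes and 1581 and 1349 in double mutant testes. The Tailor and Dis3L2 libraries thus all lay above w1118, and the double mutant libraries lay on either side of it. Without copies over exons the sums were 1182 and 1149 CPM in w1118 and 1137 and 965.5 in double mutant testes. They were then 1222 and 1535 CPM in Tailor testes and 1708 and 1399 in Dis3L2 testes. Both double mutant libraries thus lay below both w1118 libraries outside exons, and the Tailor and Dis3L2 libraries still lay above. By type, the 5 BEL/Pao families summed to 413 CPM in the higher w1118 library, 317 and 471 in Tailor testes, 634 and 618 in Dis3L2 testes and 253 and 248 in double mutant testes. Ty3/gypsy, with 41 families and 892 insertions, gave 966 and 951 CPM in w1118, 1226 and 1337 in Tailor testes, 1178 and 938 in Dis3L2 testes, and 1253 and 1054 in double mutant testes. The 2 Ty1/copia families summed to 126 and 125 CPM in w1118 and 70.3 and 38.8 in double mutant testes. In the double mutant the sums of BEL/Pao and Ty1/copia thus lay below both w1118 libraries and that of Ty3/gypsy above. The median log2 change of the families against w1118 was below 0 in each type, at -0.60 for BEL/Pao, -1.03 for Ty1/copia and -0.16 for Ty3/gypsy. The higher Ty3/gypsy sum was therefore not a rise of most of its families.

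A few copies held much of the signal. The 10 insertions with the highest levels held 35.4% of the LTR counts. One of them, blood{}5207, is a 37 bp fragment inside an exon of eIF4A, a translation initiation factor, and it alone held 90.1% of the counts of the family blood, and its reads and those of that gene cannot be told apart. Per length, 3S18{}4, a 6127 bp copy in an intron of CG32816, had a mean level of 12 CPM per kb in w1118 and 22.9 in Dis3L2 testes. In w1118 the mean level was 1.09 CPM per kb for the 6413 bp copy Burdock{}1187 and 0.304 for the 7543 bp copy springer{}1464.

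Differences were tested with edgeR's quasi-likelihood test over all 14246 features that passed the filter, or over 13605 features when the insertions were summed per family, and called at a Benjamini-Hochberg adjusted p of 0.05 or lower. Errors of log2 fold changes are standard errors. Tailor against w1118 gave 12 LTR insertions higher, against 1.22% of all features higher, and 0 lower, against 0.779%. At an unadjusted p under 0.05, 19 were lower, and DESeq2 called 4 lower. Dis3L2 against w1118 gave 13 higher and 19 lower, where 4.70% and 4.53% of all features were called, so the members' share of 10.7% was near the 9.22% of all features. The double mutant against w1118 gave 29 higher (6.66% of all features) and 21 lower (4.91%), a share of 16.7% against 11.6%. The members' median log2 change was 0.09, 0.04 and -0.23 in these comparisons and that of all features 0.02, 0.0012 and -0.06. In any of 6 comparisons 107 of the 299 were called (35.8%, against 26.2% of all features), from 31 families. Near-identical copies of a family can share reads, so these shares of members count calls that are not separate.

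Family sums gave 1 family called in the Tailor mutant, springer, where 1.92% of all features were called. It was higher, as were 1.15% of features, and 0 families were lower, where 0.772% of features were (3 lower at an unadjusted p under 0.05, 0 by DESeq2). In the Dis3L2 mutant 6 families were higher and 4 lower, where 4.79% and 4.51% of all features were called, 20.8% of families against 9.30% of features in all. The double mutant had 5 higher and 2 lower, where 6.46% and 4.83% were called. Against the Tailor mutant the double mutant had 2 families higher and 5 lower (8.21% and 6.67% of features), and against the Dis3L2 mutant 4 higher and 5 lower (4.59% and 4.14%, or 8.73% in all). These last comparisons share the double mutant libraries with the comparison to w1118, and the first ones share w1118. Leaving out a library left its group with 1, which was then assumed to vary like the other groups, and many calls then did not pass. Of the 40 family calls over all 6 comparisons, 14 and 15 passed without the first and the second w1118 library, and 11 passed without either double mutant library. When only the libraries of the 2 groups compared were fitted, 0 insertions and 0 families were called for Tailor against w1118 and for the double mutant against Tailor (edgeR), so that every call in those comparisons rests on a spread estimated over all 8 libraries. At an unadjusted p under 0.05 such fits gave 42 insertions and 8 families higher and 18 and 3 lower for the first, and 32 and 5 higher and 59 and 12 lower for the second. DESeq2, fitted to all libraries, called 26 insertions and 5 families in the first.

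**Figure D1:**
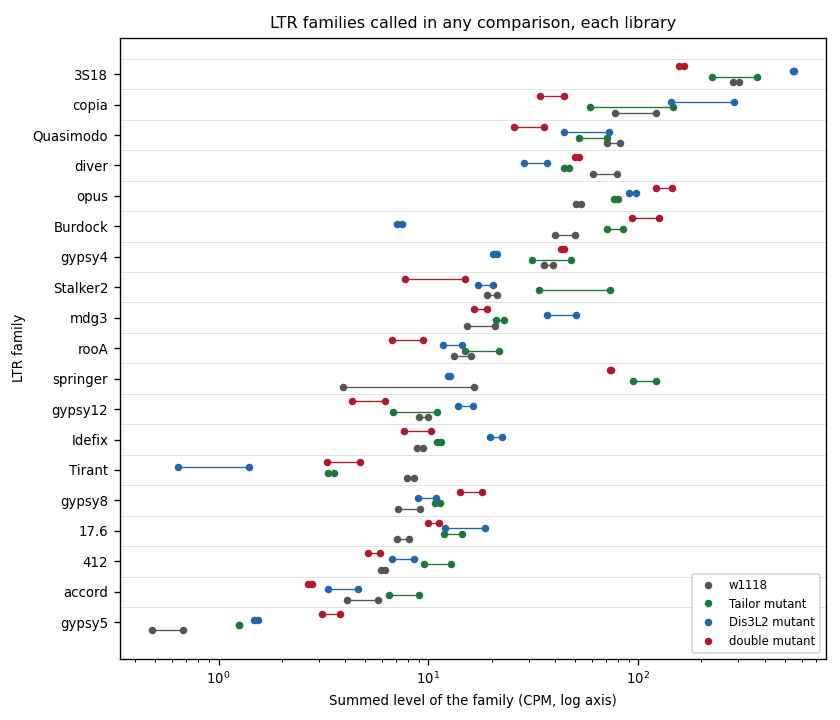
Summed level of each LTR family called in any comparison, in CPM on a log axis, with the 2 libraries of each group as points joined by a line. Burdock and Tirant have their lowest points in the Dis3L2 mutant, springer has its highest in the Tailor and double mutants, and 3S18 has its highest in the Dis3L2 mutant at 548 and 549 CPM.

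Among the errantiviruses, springer rose where Tailor was mutated. Its family level was 3.93 and 16.5 CPM in w1118, 94.7 and 121 in Tailor testes, 12.4 and 12.6 in Dis3L2 testes and 73.2 and 74.4 in double mutant testes. Every Tailor and double mutant library lay above every w1118 and Dis3L2 library, although the w1118 libraries themselves differed by a wide margin. The log2 change was 3.39 ± 0.56 in the Tailor mutant (adjusted p = 0.0316, edgeR) and 2.84 ± 0.55 in the double mutant (0.0212). The Tailor call did not pass without either Dis3L2 or either double mutant library (adjusted p 0.0817 to 0.0909) or when only the Tailor and w1118 libraries were fitted (0.247), and the double mutant call did not pass without either double mutant library (0.0842 and 0.105). Of 5 tested springer copies, all of them at least 5 kb, 4 were called higher in the Tailor mutant and 4 in the double mutant.

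Copies of springer in different genes had like levels. The copy springer{}1464, at 3R:31074284-31081826 in an intron of Sox100B, a testis transcription factor gene, had 0.776 and 3.81 CPM in w1118, 25.3 and 39.9 in Tailor testes, 3.53 and 3.38 in Dis3L2 testes and 19.2 and 24.4 in double mutant testes. The copy springer{}1067, at 3L:20476808-20484350 over an exon of isoQC, had 1.16 and 4.81, 24.9 and 35.3, 3.40 and 3.98, and 18.6 and 20.5 CPM in the same order. Both were low in the w1118 and Dis3L2 libraries and high in the other 4. Near-identical copies can share reads, so the copies of a family are not separate tests of it. Sox100B itself had 2.23 and 2.45 CPM in w1118 and 2.55 and 4.18 in the Tailor mutant, a log2 change of 0.53 ± 0.59 that was not called (adjusted p = 0.767, edgeR). With 3.92 ± 0.38 (adjusted p = 0.00438), springer{}59 had the largest log2 rise of the family in the Tailor mutant, and it passed in all refits but the one without the first w1118 library (0.0508) and the fit of only these groups (0.0855). The calls of springer{}1464 and springer{}1067 in the Tailor mutant did not pass in that fit either (0.218 and 0.226).

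Tirant, another errantivirus, was low in the Dis3L2 mutant. Its level was 7.92 and 8.52 CPM in w1118, 3.55 and 3.31 in Tailor testes, 1.40 and 0.641 in Dis3L2 testes and 4.74 and 3.30 in double mutant testes. The w1118 libraries were highest and the Dis3L2 libraries lowest, with no overlap of either with the other groups. The fall in the Dis3L2 mutant was -3.05 ± 0.38 on the log2 scale (adjusted p = 0.00501, edgeR) and passed with each library left out in turn. Relative to the Dis3L2 mutant the double mutant was 2.04 ± 0.38 higher (adjusted p = 0.0232), a call that did not pass without either w1118, either double mutant or the second Dis3L2 library (0.0582 to 0.118). All 8 tested copies had a log2 change below 0 when Dis3L2 was mutated and 4 were called. These copies make up the family sum and can share reads, so they are not separate tests of it. In Tirant{}481, in an intron of CG42238, the Dis3L2 libraries held 3 counts together against 68 in w1118, a ratio of 19.1 with an exact 95% interval from 6.26 to 94.9 for counting error alone.

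For opus, also an errantivirus, 1 copy out of 14 tested carried most of the change of the family. The family level was 53.1 and 50.3 CPM in w1118, 76.2 and 80.3 in Tailor testes, 97.0 and 90.6 in Dis3L2 testes and 144 and 121 in double mutant testes. Each mutant lay above w1118 and the double mutant above both single mutants. The log2 change in the double mutant, 1.36 ± 0.13 (adjusted p = 0.00189, edgeR), passed with each library left out. Of the 14 copies, 2 were called higher there and 1 lower. Without opus{}2507, however, the rest of the family summed to 51.7 and 48.5 CPM in w1118, 42.4 and 54.0 in Tailor testes, 54.3 and 40.9 in Dis3L2 testes and 38.6 and 35.7 in double mutant testes, so that in no mutant did both libraries lie above w1118.

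The copy opus{}2507 is a 2820 bp piece at 2R:5095773-5098592 on the minus strand, 683 bp from CG3107, a gene on the other strand. It had 1.36 and 1.68 CPM in w1118, 33.9 and 26.0 in Tailor testes, 42.4 and 49.8 in Dis3L2 testes and 106 and 85.6 in double mutant testes. No 2 groups overlapped. It gave 2.98% of the opus counts in w1118 and 72.7% in the double mutant. The log2 change was 4.29 ± 0.23 in the Tailor mutant (adjusted p = 0.000668, edgeR), 4.91 ± 0.24 with Dis3L2 mutated (0.000182) and 5.97 ± 0.24 with both genes mutated (0.000156). The double mutant also lay above the Tailor mutant by 1.68 ± 0.19 (adjusted p = 0.00597), and its level was lower than the sum of both single changes on the log2 scale, with an interaction of -3.23 ± 0.29 (0.00383). These calls all passed with each library left out. When only the 2 groups compared were fitted, the call in the Tailor mutant (0.0535) and the one between the double and the Tailor mutant (0.0604) did not pass. CG3107 had 144 and 154 CPM in w1118 and 123 and 92.3 in the double mutant, a log2 change of -0.47 ± 0.16 that was not called (0.106).

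Another copy of the same family went the other way. The 7527 bp copy opus{}306, at 2L:4661880-4669406, had 1.70 and 1.16 CPM in w1118, 0.351 and 0.804 in Tailor testes, 0.599 and 0.471 in Dis3L2 testes and no count in either double mutant library. Every single mutant library was below w1118 and above the double mutant. Taking 3 counts over the group as the limit of a count of 0, it was at least 19.1-fold lower in the double mutant than in w1118, with 64 counts. The call (adjusted p = 0.00939, edgeR) did not pass without either w1118 or the first double mutant library (0.0533 to 0.068).

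**Figure D2:**
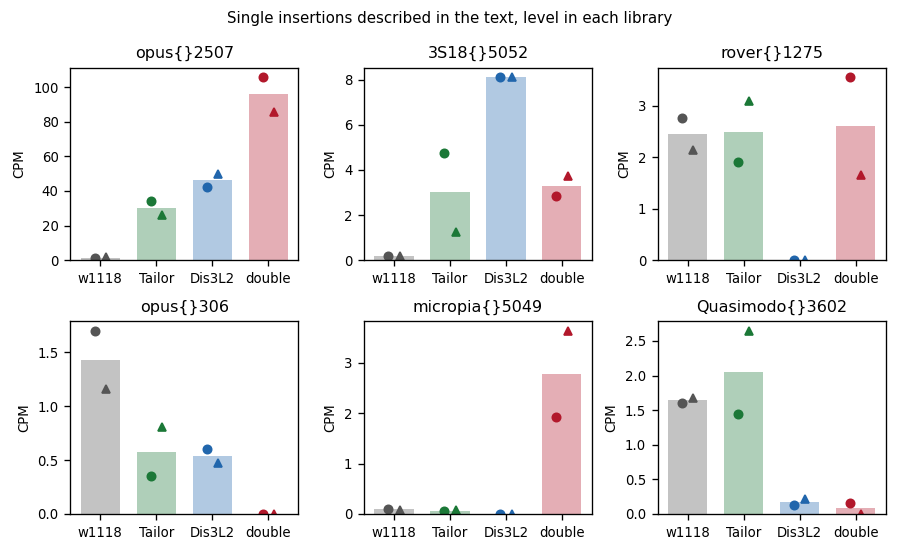
Level in CPM of 6 insertions in each library, circles for replicate 1 and triangles for replicate 2, with bars at the mean of the 2 libraries of a group; the labels under the bars are w1118 and the mutants, double being the double mutant. opus{}2507 was at 1.36 and 1.68 CPM in w1118 and at 106 and 85.6 CPM in the double mutant, opus{}306 was at 0 in both double mutant libraries and rover{}1275 was at 0 in both Dis3L2 libraries.

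The errantivirus Idefix, which in ovaries is under the control of the piRNA locus flamenco, rose in the Dis3L2 mutant. Its level was 9.38 and 8.80 CPM in w1118, 11 and 11.5 in Tailor testes, 22.5 and 19.7 in Dis3L2 testes and 10.3 and 7.64 in double mutant testes. The Dis3L2 libraries lay above all others, as did their sums of blood cell and of cyst and hub markers, whose part in this and in the rises of mdg3 and 3S18 was not tested. The rise was 1.21 ± 0.18 on the log2 scale (adjusted p = 0.00896, edgeR) and did not pass without either w1118 or the first Dis3L2 library (0.0709 to 0.0991). The double mutant was lower than the Dis3L2 mutant by the same amount, -1.21 ± 0.18 (0.0115), and that call did not pass without either Dis3L2 or the second double mutant library (0.06 to 0.0821). For a further errantivirus family the rise in the Dis3L2 mutant, from 7.09 and 8.12 to 18.6 and 12 CPM, was 1.00 ± 0.24 (0.0438), and did not pass without either w1118, the first Dis3L2 or either double mutant library (0.078 to 0.27). Quasimodo fell from 82.1 and 71.2 CPM in w1118 to 35.5 and 25.6 in the double mutant, by -1.32 ± 0.28 (0.0281), a call lost without any 1 of those 4 libraries (0.0804 to 0.176). Its 659 bp fragment Quasimodo{}3602, between genes at 2R:4543280-4543938, had 33 and 42 counts in w1118, 29 and 66 in Tailor testes, 2 and 5 in Dis3L2 testes and 5 and 0 in double mutant testes. Both groups with Dis3L2 mutated lay below the others. It was lower than in w1118 in the Dis3L2 mutant (-3.15 ± 0.66, adjusted p = 0.028, edgeR) and in the double mutant (-3.79 ± 0.71, 0.0188), and neither call passed without either w1118 library (0.0979 to 0.141). The first was also lost without either Dis3L2 library (0.148 and 0.163) and the second without the second double mutant library (0.0682).

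The rover family as a whole was not called, and 1 of its copies had no count in the Dis3L2 mutant. The 7412 bp copy rover{}1275, antisense in an intron of pyd, a cell junction gene, at 3R:8906389-8913800, had 2.76 and 2.13 CPM in w1118, 1.90 and 3.09 in Tailor testes, 0 in both Dis3L2 libraries and 3.56 and 1.66 in double mutant testes. Of the 8 libraries, the Dis3L2 pair alone lacked it, and the double mutant libraries lay on either side of the w1118 and Tailor libraries. It was at least 30.9-fold lower in the Dis3L2 mutant than in w1118 (110 counts), and the call (adjusted p = 0.00576, edgeR) passed with each library left out. Against the double mutant, with 127 counts, the Dis3L2 mutant was at least 39.8-fold lower. The host gene pyd had 62.0 and 60.1 CPM in w1118 and 55.0 and 46.0 in the Dis3L2 mutant, a log2 change of -0.28 ± 0.22 (0.508).

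Among the other gypsy families Burdock, which in ovaries is silenced in the germline, was lowest with Dis3L2 mutated and highest with both genes mutated. Its level was 50.1 and 40.3 CPM in w1118, 84.1 and 71.1 in Tailor testes, 7.49 and 7.05 in Dis3L2 testes and 126 and 93.6 in double mutant testes. No 2 groups overlapped, and the Dis3L2 libraries were the lowest and the double mutant libraries the highest. In the Dis3L2 mutant the log2 change was -2.64 ± 0.20 (adjusted p = 0.000894, edgeR), and in the double mutant it was 1.28 ± 0.19 (0.00872). The double mutant exceeded the Dis3L2 mutant by 3.92 ± 0.21 (0.000357), and the interaction was 3.14 ± 0.27 (0.00296). The rise in the double mutant did not pass without either w1118 or the first double mutant library (0.0552 to 0.0795), whereas the other 3 calls passed with each library left out.

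Most copies of Burdock went the way of the family sum. They are part of that sum and can share reads, so they are not separate tests of it. Of 15 tested, 14 had a log2 change below 0 when Dis3L2 was mutated, and 9 of them were called. The median over the 15 was -2.78. With both genes mutated 13 of the 15 lay above 0, of which 7 were called higher. The 6413 bp copy Burdock{}1187, sense in an intron of flip at 3R:4270790-4277202, had 8.05 and 5.98 CPM in w1118, 11.1 and 10.2 in Tailor testes, 0.866 and 0.599 in Dis3L2 testes and 16.8 and 13.9 in double mutant testes. Its order of groups was that of the family. An exception was Burdock{}4109, a 141 bp fragment in the antisense RNA CR45600, with 0.485 and 0.842 CPM in w1118, 1.07 and 0.471 in Dis3L2 testes and no count in Tailor or double mutant testes. Here CR45600 itself went the same way, with 2.91 and 3.57 CPM in w1118 and 0.0321 and 0 in the double mutant, so the fragment and the RNA that holds it cannot be told apart.

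mdg3 rose in the Dis3L2 mutant like Idefix. It had 20.8 and 15.3 CPM in w1118, 21.0 and 22.9 in Tailor testes, 50.4 and 36.8 in Dis3L2 testes and 19.0 and 16.5 in double mutant testes. The Dis3L2 libraries lay above all others. The rise was 1.27 ± 0.22 (adjusted p = 0.0144, edgeR) and did not pass without either w1118 or the first Dis3L2 library (0.0537 to 0.132). Its copy mdg3{}119, sense in an intron of Neto, rose by 1.76 ± 0.28 (0.0114), and Neto, a gene for an auxiliary protein of glutamate receptors, was also called, at 1.74 ± 0.37 (0.0282), a call that did not pass without any 1 of the w1118, Dis3L2 or double mutant libraries (0.0576 to 0.217). The insertion call did not pass without either w1118 or the first Dis3L2 library (0.0664 to 0.112).

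gypsy5 was a low family whose level was above w1118 in every mutant. It had 0.680 and 0.482 CPM in w1118, 1.25 in both Tailor libraries, 1.47 and 1.54 in Dis3L2 testes and 3.78 and 3.10 in double mutant testes. The 4 groups did not overlap. In the Tailor mutant gypsy5 changed by 1.11 ± 0.33 on the log2 scale, which was not called (adjusted p = 0.187, edgeR). Its change in the double mutant was 2.57 ± 0.33 (adjusted p = 0.00583, edgeR), which did not pass without either w1118 library (0.053 and 0.0686). In the Dis3L2 mutant it was 1.37 ± 0.33 (0.0457), and that call did not pass without any 1 of the w1118, Dis3L2 or double mutant libraries (0.0744 to 0.287), nor with DESeq2 (0.127), with no filter (0.0531) or with copies of at least 1 kb alone (0.088). gypsy8 rose in the double mutant, from 9.13 and 7.19 to 14.2 and 18 CPM, by 0.97 ± 0.20 (0.0266), a call lost without any 1 of those 4 libraries (0.0651 to 0.194), with copies of at least 1 kb alone (0.0548) and with copies outside exons alone (0.068). gypsy4 fell in the Dis3L2 mutant, from 35.5 and 39.3 to 21.3 and 20.3 CPM, by -0.85 ± 0.21 (0.0468), and 91.8% of its counts came from the single copy gypsy4{}4423. That call did not pass without any 1 of the w1118, Dis3L2 or double mutant libraries (0.0876 to 0.223), nor with copies of at least 1 kb alone (0.0505).

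For HMS-Beagle, the second most abundant family, copies were called in the Tailor mutant where the family was not. The family had 101 and 110 CPM in w1118 and 158 and 222 in the Tailor mutant, a log2 change of 0.85 ± 0.19 that was not called (adjusted p = 0.0817, edgeR), although 11 of its 14 tested copies had a change above 0 and 4 were called higher there. Its copy HMS-Beagle{}347, a 7072 bp element between genes at 2L:12558375-12565446, had 0.533 and 1.00 CPM in w1118, 4.81 and 19.4 in Tailor testes, 0.732 and 0.471 in Dis3L2 testes and 14.4 and 3.95 in double mutant testes. The Tailor and double mutant libraries were above the other 4, with wide spread in each pair. Its change in the Tailor mutant was not called (3.96 ± 0.87, 0.0747). Its rise in the double mutant was 3.59 ± 0.86 (0.0398), a call that did not pass without any 1 of the w1118, Dis3L2 or double mutant libraries (0.0656 to 0.224).

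**Figure D3:**
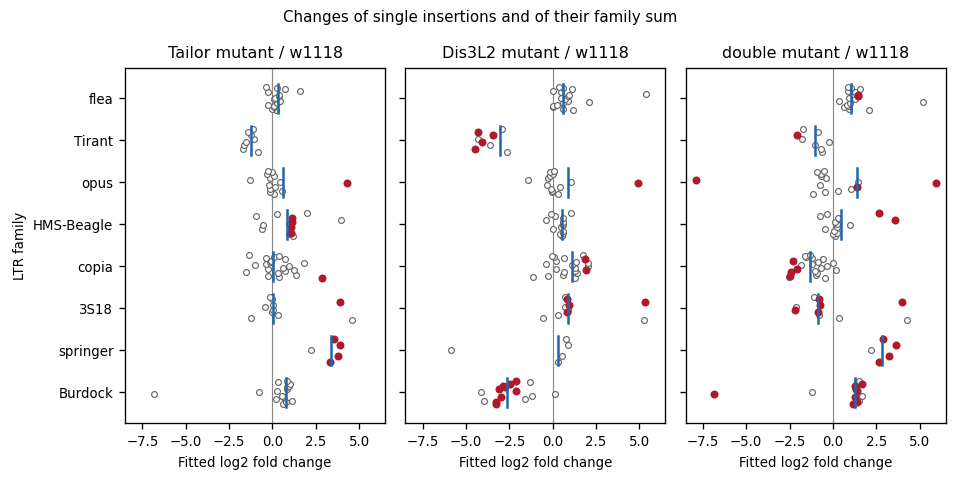
Fitted log2 fold change of the tested insertions in 8 families against w1118, one point per insertion, filled red where called, with the change of the family sum as a blue bar. The largest rises of flea lie beyond the axis and are not shown. Among them are flea{}756, at 8.66 in the Tailor and 8.40 in the double mutant, and flea{}152, at 7.15 in the Tailor mutant, none of them called. Points of Burdock, springer and Tirant lie around their family bar with few exceptions, whereas for opus the copy opus{}2507, at 4.29, 4.91 and 5.97, stands apart from most others, and opus{}306, with no count in the double mutant, lies far below 0 there. Values beyond about 6 on either side, shown or not, have a group with no or few counts, and their size depends on the small count added in the fit.

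In the BEL/Pao type, 3S18, also known as BEL and the most abundant LTR family here, had opposite changes in the Dis3L2 and the double mutant. Its level was 284 and 302 CPM in w1118, 225 and 366 in Tailor testes, 548 and 549 in Dis3L2 testes and 156 and 165 in double mutant testes. The Dis3L2 libraries lay above all others and the double mutant libraries below all others. The change was 0.91 ± 0.21 in the Dis3L2 mutant (adjusted p = 0.0423, edgeR) and -0.87 ± 0.21 in the double mutant (0.0438). Neither call passed without any 1 of the w1118, Dis3L2 or double mutant libraries (0.0844 to 0.254 for the first and 0.0866 to 0.22 for the second). Between the double and the Dis3L2 mutant the difference was -1.77 ± 0.22 (0.00591), lost without the second Dis3L2 or either double mutant library (0.0552 to 0.061) and at 0.05 without the first Dis3L2 library.

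Whole-length copies of 3S18 in introns on different chromosomes followed the family sum. They are part of that sum, with 25.7% of its counts in 3S18{}4, and near-identical copies can share reads, so they are not separate tests of it. At X:428474-434600, 3S18{}4 had 69.9 and 77.6 CPM in w1118, 62.8 and 86.4 in Tailor testes, 130.0 and 150 in Dis3L2 testes and 41.8 and 44.8 in double mutant testes. At 2R:18575853-18581982, in an intron of GEFmeso, 3S18{}853 had 62.4 and 75.7, 41.5 and 83.5, 117 and 107, and 33.7 and 29.8 CPM in the same order. In both the Dis3L2 libraries were highest and the double mutant lowest. A 1606 bp piece, 3S18{}5052 at 2R:5458778-5460383, was instead higher in all mutants, with 0.194 and 0.201 CPM in w1118, 4.76 and 1.25 in Tailor testes, 8.12 and 8.13 in Dis3L2 testes and 2.86 and 3.74 in double mutant testes. Its rise in the Dis3L2 mutant was 5.32 ± 0.70 (adjusted p = 0.00557, edgeR), lost without either w1118 library (0.0572 and 0.0609).

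diver, of the same type, was lower in every mutant than in w1118. It had 79.4 and 60.7 CPM in w1118, 44.1 and 46.5 in Tailor testes, 36.6 and 28.6 in Dis3L2 testes and 52.2 and 49.8 in double mutant testes. The w1118 libraries did not overlap with the others. Only the change in the Dis3L2 mutant was called among the 3 against w1118, at -1.10 ± 0.18 (adjusted p = 0.0114, edgeR), and it did not pass without the first w1118 or the second Dis3L2 library (0.0979 and 0.0906). The copy diver{}839 held 175 counts in w1118 and 2 in the Dis3L2 mutant, a ratio of 73.7 with a counting interval from 20.1 to 614. Its Tailor libraries differed, at 1.90 and 0.0402 CPM. The Dis3L2 call (0.0468) did not pass without any 1 of the w1118, Dis3L2 or double mutant libraries (0.0875 to 0.238).

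In the Ty1/copia type, copia was lowest in the double mutant, with a wide spread within groups. It had 77.0 and 122 CPM in w1118, 58.7 and 147 in Tailor testes, 285 and 143 in Dis3L2 testes and 44.3 and 33.9 in double mutant testes. The double mutant libraries lay below all others, and the Tailor and Dis3L2 ranges overlapped. Of 21 tested copies, all had a log2 change below 0 in the double mutant against the Dis3L2 mutant and 8 were called. As parts of the family sum that can share reads, they are not separate tests of it. The change of the family was -2.44 ± 0.51 (adjusted p = 0.0306, edgeR), a call that did not pass without any 1 of the w1118, Dis3L2 or double mutant libraries (0.0539 to 0.19). In the Tailor mutant copia{}1016, in an intron of Lasp, had 3.16 and 7.79 CPM against 0.776 and 0.722 in w1118, a rise of 2.87 ± 0.54 (0.0479). That call did not pass without any 1 of the w1118, Dis3L2 or double mutant libraries (0.0762 to 0.375), nor when only these groups were fitted (0.198). For copia{}1467, in an intron of Gprk2, the levels were 3.51 and 9.72 CPM in Tailor testes and 15.3 and 23.7 in w1118, a log2 difference of -1.55 ± 0.51 that was not called (0.223).

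Comparing the double mutant with the Tailor mutant gave 15 LTR insertions higher and 28 lower, where 8.13% and 6.54% of all features were called. Among families, Stalker2 was lower, at 14.9 and 7.74 CPM against 33.5 and 73.1 in the Tailor mutant, by -2.20 ± 0.42 (adjusted p = 0.0184, edgeR), a call lost without either double mutant library (0.0531 and 0.118). accord (-1.50 ± 0.30), rooA (-1.16 ± 0.26) and 1 more gypsy family (-1.01 ± 0.22) were also lower. Each of these 3 calls was lost without either double mutant library (0.0666 to 0.155), that of the last also without either w1118 library (0.0651 and 0.0671), and that of rooA also without either w1118, the second Tailor or the second Dis3L2 library (0.0509 to 0.068). When only these groups were fitted, none of these 4 families was called (0.0873 to 0.111). Against the Dis3L2 mutant the double mutant had 30 insertions higher and 22 lower, where 4.77% and 4.27% of all features were called. In either direction 17.4% of the members and 9.05% of all features were called. Burdock copies were 13 of those 30 and copia copies 8 of those 22. Copies of a family can share reads, so the members' share counts calls that are not separate. Further family calls were gypsy12, lower at 6.18 and 4.33 CPM against 16.3 and 13.8 (-1.49 ± 0.28, adjusted p = 0.0236, edgeR), and gypsy4, higher at 44.4 and 43.0 against 21.3 and 20.3 (1.07 ± 0.21, 0.0252). Neither call passed without any 1 of the w1118, Dis3L2 or double mutant libraries (0.0536 to 0.14). springer was higher than in the Dis3L2 mutant by 2.56 ± 0.54 (0.0318), lost without either Dis3L2 or double mutant library (0.115 to 0.175), and mdg3 was lower by -1.29 ± 0.22 (0.0162), lost without the first Dis3L2 or either double mutant library (0.0824 to 0.115). The interaction gave 18 insertions above 0 and 20 below 0, where 1.99% and 2.08% of all features were called, a share of 12.7% against 4.08%. Burdock copies were 9 of those 18, so the same limit holds. Among families 6 were called, 3 each way, where 1.73% and 1.82% of features were.

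A short stretch of 2R held most of its counts in the double mutant. Within 2R:5617971-5620606 lie pieces of 3 LTR families side by side, invader1{}694, micropia{}5049 and invader6{}4993, of 816, 493 and 970 bp. micropia{}5049 had 60 and 35 counts in the double mutant, 2 in each w1118 library, 1 and 2 in Tailor testes and 0 in both Dis3L2 libraries. In invader1{}694 the double mutant counts were 40 and 6, with 3 in the other 6 libraries together, and in invader6{}4993 they were 36 and 9, with 2 in the others. All 3 were called higher in the double mutant than in each other group. They passed the count filter through the double mutant alone, so a call in the other direction was not possible. Lying side by side, they may not be separate results. The calls against Tailor did not pass when only those groups were fitted (0.0604 for micropia{}5049 and 0.0771 for invader6{}4993). For micropia{}5049 against the Tailor mutant the ratio was 34.8 with a counting interval from 11.6 to 172, and against the Dis3L2 mutant it was at least 29.8-fold. The call of micropia{}5049 against w1118 (4.86 ± 0.61, adjusted p = 0.00768, edgeR) did not pass without either w1118 library. For invader6{}4993 the call (0.0228) did not pass without either w1118 or the second double mutant library. Without the first double mutant library, which held 36 of its counts, invader6{}4993 had no test. Neither neighbouring gypsy or springer pieces nor invader3{}695, with 0 to 6 counts in a library, showed that pattern. CG17508, the nearest gene, had 48.2 and 55.3 CPM in w1118 and 39.9 and 25.8 in the double mutant, -0.65 ± 0.29 (0.185).

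Some copies differed most between the 2 libraries of a group. With a count of at least 50 in one library, 9 insertions differed at least 8-fold within a group, in 13 pairs of libraries. A 4648 bp copy of the second Ty1/copia family, between genes at 2R:6346949-6351596, had 48.1 and 1.40 CPM in w1118, 37.0 and 51.5 in Tailor testes, 1.20 and 27.5 in Dis3L2 testes and 25.3 and 4.05 in double mutant testes. 3S18{}1090 had 0.485 and 0.762 CPM in w1118, 0.551 and 29.5 in Tailor testes, 49.3 and 0.642 in Dis3L2 testes and 8.92 and 16.3 in double mutant testes. High and low libraries thus occurred under the same genotype. flea{}756, in an intron of jing, had 96 and 0 counts in Tailor testes, 113 and 0 in double mutant testes, 0 and 10 in Dis3L2 testes and none in w1118. springer{}300 had 14.8 and 2.33 CPM in Tailor testes and 14.6 and 1.25 in double mutant testes, but 0 and 0.0428 in Dis3L2 testes. Stalker2{}1637, which overlaps an exon of flamenco (lncRNA:flam), had 4 and 150 counts in Tailor testes and 1 to 11 in each library of the other groups. None of the 8 that were tested was called against w1118.

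**Figure D4:**
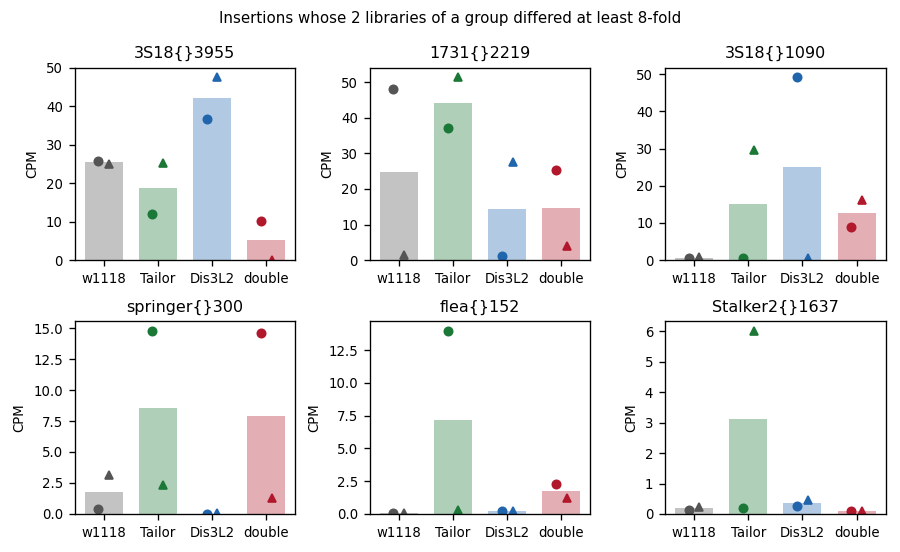
Level in CPM of 6 of the 9 insertions whose libraries of a group differed at least 8-fold, circles for replicate 1 and triangles for replicate 2, with bars at the mean of the 2 libraries of a group. The Ty1/copia copy on 2R was at 48.1 and 1.40 CPM in w1118 and at 1.20 and 27.5 CPM in the Dis3L2 mutant.

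Called insertions came from every class of length and position. Of tested copies at least 5 kb long, 71 of 194 were called in any comparison, against 23 of 59 copies of 1 to 5 kb and 13 of 46 shorter ones. By place, 49 of 129 tested copies between genes, 45 of 126 in introns and 13 of 44 over exons were called. Of the tested genes that hold a called insertion, 0 of 6 were themselves called in the same direction with Tailor mutated, 1 of 18 with Dis3L2 mutated and 3 of 21 with both, and 0, 1 and 2 were called in the other direction. Over all features 2.00%, 9.22% and 11.6% were called in these comparisons in either direction. No source used here says whether counting used the strand, so reads of an insertion and of a gene on the other strand cannot be separated.

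Of a list of 51 piRNA and siRNA pathway genes 47 were matched and 46 tested. In the Tailor mutant 0 rose and 1 fell, in the Dis3L2 mutant 2 rose and 2 fell, and in the double mutant 3 rose and 3 fell, with median log2 changes of -0.07, -0.11 and -0.03. Over all features the medians were 0.02, 0.0012 and -0.06 and the shares called in either direction 2.00%, 9.22% and 11.6%, so the list's 1, 4 and 6 called genes of 46 were near the background. The genes piwi, aub and AGO3, which encode the Piwi proteins, were called in none of the comparisons with w1118. del (deadlock), which helps define piRNA source loci, had 60.2 and 68.4 CPM in w1118, 41.2 and 42.5 in Tailor testes, 27.4 and 26.0 in Dis3L2 testes and 45.0 and 41.1 in double mutant testes. Its libraries were highest in w1118 and lowest in the Dis3L2 mutant, and the fall there was -1.27 ± 0.13 (adjusted p = 0.00254, edgeR), which passed with each library left out. spn-E, an RNA helicase that acts in piRNA production, rose in the Dis3L2 mutant from 28.4 and 28 to 59.5 and 55.6 CPM, by 1.03 ± 0.18 (0.0152), a call lost without any 1 of those 4 libraries (0.0711 to 0.132). thoc7, a subunit of the THO complex that packages transcripts for export, fell there from 12.8 and 12.1 to 5.26 and 5.99 CPM, by -1.14 ± 0.16 (0.00702), a call lost without either w1118 or the first Dis3L2 library (0.0512 to 0.0669). loqs, a partner of Dicer proteins, rose from 181 and 163 CPM in w1118 to 252 and 263 in Dis3L2 testes (0.58 ± 0.12, 0.026) and 308 and 333 in double mutant testes (0.90 ± 0.12, 0.00637). Without either w1118 library neither loqs call passed, and the first was also lost without any 1 of the Dis3L2 and double mutant libraries (0.0503 to 0.222 in all). armi, another piRNA helicase, was the gene that fell in the Tailor mutant, from 59.4 and 54.7 to 32.6 and 35.6 CPM, by -0.74 ± 0.13 (0.0349), and that call passed only without the second Tailor library (0.069 to 0.351 otherwise). Whether these genes have a part in the differences of the LTR families was not tested.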

How the data were processed

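Total RNA libraries (TruSeq Total RNA, 650 ng input, 8 cycles of PCR, paired reads of 50 nt, 2 flow cells) were made from dissected testes, per the labels' protocols. Reads were trimmed with Trimmomatic 0.36 and aligned with HISAT2 to dm6, per the submitters' processing notes. No source used here gives the counting tool, its strand setting or its treatment of reads that fit several copies, which decide how reads are shared among near-identical insertions. The deposited values are whole raw counts per gene and per transposon insertion, with no normalization by the authors.

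From these counts, CPM were computed on library sizes scaled by trimmed means of M values, and edgeR 4.0.16 (R 4.3.3) was fitted to the 8 libraries together, by group alone, after its filter with a minimum count of 10 over all features. Calls use an adjusted p of 0.05. Family values are sums of counts over a family's insertions, tested together with all genes. The interaction is the double mutant minus both single mutants plus w1118, on the log2 scale. The test was run on simulated counts, with 2 libraries a group, for Dis3L2 against w1118. Of features changed by 1 log2 unit 25 of 64 were recovered, of those changed by 2 units 50 of 66, and of those changed by 3 units 69 of 69. There were 5 false calls among 14036 features, and an earlier run with another random seed gave more. The simulated spread followed the fitted trend, so these rates do not describe copies whose libraries differ widely within a group. Groups with 0 counts were set to 3 counts over the group for a bound on a fold change, and intervals of ratios are exact 95% intervals that cover counting error only, since reads without molecular identifiers are not independent molecules. Positions and genes come from the Ensembl annotation of the assembly with dm6 coordinates.

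Alternatives were DESeq2 1.42.0, other scaling, other filters, a replicate block, fits of only the groups compared, family sums without short or exonic copies, and leaving out each library. Named insertions were the 8 largest rises and falls against w1118 and the 4 largest otherwise, among called insertions that reached 1 CPM in the higher group without overlap of the libraries compared, plus the 10 with the highest levels. Families named were those called in any comparison or among the most abundant. Insertions that differ between libraries of a group, the stretch of neighbouring pieces on 2R and single copies named as examples were chosen after their values were seen. The members and gene lists were chosen with earlier results of these data known.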

Additional observations from a re-analysis of the deposited data

Results flagged for a closer look

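The double mutant was set against the sum of the single changes as an interaction on the log2 scale. Each value here passed that test (edgeR, adjusted p at or under 0.05), so that the double mutant differed from that sum. Dis3L2 itself had an interaction of 1.91 (0.00254), with 30.7 and 30.8 CPM in the double mutant and 9.99 and 10.6 in the Dis3L2 mutant. The alleles and strains are not given, so an interaction of the mutations and a difference in alleles or in the copies carried cannot be told apart. Among families the interaction was 3.14 for Burdock, 3.30 for Tirant and 1.28 for diver, which were low in the Dis3L2 mutant and higher in the double mutant. It was -1.79 for 3S18, -1.52 for Idefix and -1.57 for mdg3, which were high in the Dis3L2 mutant and not in the double mutant. The Burdock call passed with each library left out in turn, while those of the other 5 families did not pass without either w1118 library, among others (adjusted p up to 0.196), and that of Idefix did not pass with copies outside exons alone (0.0614).

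Among single insertions, the interaction was -3.23 for opus{}2507, which passed with each library left out. It was 9.23 for micropia{}5049, 8.80 for rover{}1275, 5.40 for Tirant{}481 and 4.90 for Tirant{}834. In these 4 the Dis3L2 libraries hold 0 to 3 counts together, so the fitted size depends on the small count added in the fit. It was -5.19 for 3S18{}5052, -4.65 for copia{}1016 and -3.85 for copia{}631. None of these 7 calls passed without either w1118 library (adjusted p from 0.0815 to 0.185). No group of 4 or more libraries exists here, so no search for outlying libraries within a group was made.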

How the results depend on the processing

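No alternative that gave a value turned the direction of the 64 insertion changes and 40 family changes that the naming rule chose among those called. All were called, and outside the interaction the insertions had no overlap of the compared libraries, so a turned direction was unlikely from the start. A minimum count of 30 gave values for 53 of the insertion changes, and fits of only the groups compared for 56 insertion and 34 family changes. Pathway and host genes were refitted only with libraries left out, and copies named as examples or without a call were not all refitted. Upper-quartile or size-factor scaling, a minimum count of 30 and leaving out ribosomal RNA kept every count of called families or insertions within 1.5 times the value reported. DESeq2 called 26 insertions in the Tailor mutant where edgeR called 12, and among families 5 in the Tailor mutant (1 in edgeR), 14 for the double mutant against Tailor (7), 14 against Dis3L2 (9) and 14 for the interaction (6). With no filter 22 insertions were called in the Tailor mutant. With family sums over insertions of at least 1 kb, 2 families were called there. Fits of only the groups compared called 59 insertions in the Dis3L2 mutant (32 with all libraries) and 89 in the double mutant (50), with 20 families in the latter (7). Such fits called 0 insertions and 0 families for Tailor against w1118 (edgeR, with 42 insertions higher and 18 lower and 8 families higher and 3 lower at an unadjusted p under 0.05) and for the double mutant against Tailor (32 and 59 insertions, 5 and 12 families).

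Replicate numbers did not pair the libraries: deviations of same-numbered libraries correlated between -0.30 and 0.30. A replicate block gave 5 insertions for Tailor, 30 for the double mutant, 22 for the double mutant against Tailor and 17 for the interaction, and 6 families for Dis3L2 and 3 for the interaction.

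Leaving out 1 library at a time, called insertions ranged from 2 to 24 (Tailor), 9 to 55 (Dis3L2), 5 to 85 (double mutant), 1 to 86 (double mutant against Tailor), 12 to 77 (against Dis3L2) and 5 to 74 (interaction). Called families ranged from 0 to 3, 2 to 11, 2 to 16, 0 to 17, 1 to 15 and 1 to 15 in that order. Depth left 868 of the 1167 insertions untested. In the simulated counts, whose spread followed the fitted trend, 25 of 64 changes of 1 log2 unit were recovered.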

Other observations

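The table also lists 21 insertions of a family named Max, which the list of names did not match. Their summed level was 17.7 and 14.6 CPM in w1118, 17.4 and 15.0 in Tailor testes, 24.5 and 20.1 in Dis3L2 testes and 10.5 and 16.5 in double mutant testes, and no change against w1118 was called. Near the LTR pieces on 2R with counts in the double mutant lies Rt1a{}696, a retrotransposon without long terminal repeats, which had 53 and 16 counts in the double mutant and 0 to 2 in each of the other libraries.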
